A study of Mus musculus with 5 samples.

Results

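The 9 names below made up the set of primed epiblast and mesendoderm markers, and every array probe that carries one of them as its gene name was taken, which gave 10 probes for 9 of the 27962 gene names in the files. The markers were Otx2, Pou3f1, Fgf5 and Fgf8 of the epiblast and T, Eomes, Gsc, Mixl1 and Cer1 of the primitive streak and endoderm. Each had 1 probe except Fgf8, which had 2. Total RNA was measured in 5 mouse embryonic stem cell (ESC) lines, 1 one-colour Agilent array per line, all grown on gelatin in medium with serum and LIF, a cytokine that holds mouse ESCs undifferentiated. Of the wild-type lines, RF8 is labelled male and of 129sv origin, and #620-2 is labelled female and of C57BL6/129sv origin. The ECAT11EGFP/EGFP lines, in which an EGFP knock-in disrupts both copies of ECAT11, were #620-6 (labelled female), #757-1 and #757-2 (both labelled male), all of C57BL6/129sv origin. No probe is named ECAT11, so these arrays do not check the genotype of a line, which was taken from its label. The authors reported no ECAT11 protein in their ECAT11EGFP/EGFP lines by Western blot and immunostaining. Each line is a single clone, so the lines are the replicates and a line's own culture-to-culture spread was not measured. ECAT11 is an ESC-enriched gene whose product resembles the first open reading frame of L1 retrotransposons, and the comparison of genotypes asks what its loss changes in these cells.

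ESCs resemble the epiblast of the embryo before implantation, the naive state. After implantation the epiblast passes to a primed state, in which Fgf5, Otx2 and Pou3f1 (Oct6) are switched on while naive genes such as Klf4 and Zfp42 (Rex1) are shut off. Nodal, FGF and Wnt signals then start the primitive streak, where Fgf8 and the transcription factors T (brachyury), Eomes, Mixl1 and Gsc (goosecoid) mark cells on their way to mesoderm and endoderm, and Cer1, a secreted antagonist of Nodal, BMP and Wnt, marks anterior and definitive endoderm. ESC cultures in serum and LIF are known to be mixtures in which some cells carry primed or early mesendoderm transcripts. In RNA from a whole culture, fewer cells of such a type and less RNA per cell cannot be told apart.

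All signals below are log2 values of the background-corrected intensity relative to the 75th percentile of the array, so that 0 is the brightness of that percentile and 1 unit is a factor of 2. A probe counts as well above background on an array where the extraction software marked most of its spots so. Arrays of RF8, #620-2 and #620-6 lay on slide 1, with 26362 to 27134 probes well above background, and those of #757-1 and #757-2 on slide 2, with 22044 and 21242. The dimmest signal well above background was between -6.23 and -5.91 on slide 1, and -4.50 and -4.23 on slide 2. No spot was saturated. All 8 probes of the ESC core list (Pou5f1, Sox2, Sall4, Lin28a, Dppa4 and Dppa5a) were well above background on all 5 arrays, so the defining genes of the labelled cell type were present. The 6 Y-linked probes kept for testing were well above background in the 3 lines labelled male and in neither line labelled female.

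The readout of a marker is the binding of its RNA to a single 60-base probe, placed in the mouse build mm7 by the files, and the exon or UTR it lies in is not analysed here. The first 30 bases of the probe are shown for the markers on which the results turn, in lower case throughout, as the files give them. The Otx2 probe is at chr14:43989807-43989866 (minus strand), that of Pou3f1 at chr4:124103741-124103800 (plus), that of Fgf5 at chr5:97491844-97491903 (plus), that of Fgf8 at chr19:45633777-45633836 (minus), that of Eomes at chr9:118163832-118163891 (plus) and that of Gsc at chr12:101965538-101965597 (minus). T was measured by a probe that the files place on an unplaced part of chromosome 17. GC content was 35% in the Otx2, Fgf5, T and Gsc probes, 45% in that of Eomes and 55% in those of Fgf8 and Pou3f1.
Otx2: agatcattggtttcctgatttgcaaatgat
Pou3f1: tccggcgcgcagttagcgcgcgcggcctgg
Fgf5: atggagatctatgaagtataagtgttcacc
Fgf8: ggcacagcaaaggggaggggctggggagct
T: taagagcaataatacatgtcctataatcat
Eomes: caggtaaataaactgaagcagacctagcat
Gsc: ccgtagtatttatagttaagttaacggtga

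Of the 9 markers, 7 had a probe that was kept, 8 probes in all, and 6 of these, for Otx2, Pou3f1, Fgf5, Fgf8, Eomes and Gsc, were well above background on all 5 arrays. The probes of Mixl1 (chr1:180673929-180673988) and Cer1 (chr4:82285553-82285612) were well above background on none, and no level or fold is given for them. The second Fgf8 probe (chr19:45638514-45638573) was well above background in RF8 only. T was below that mark in #620-6, where 3 of 10 spots reached it, and in #757-1, where none of 8 did.

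**Figure D1:**
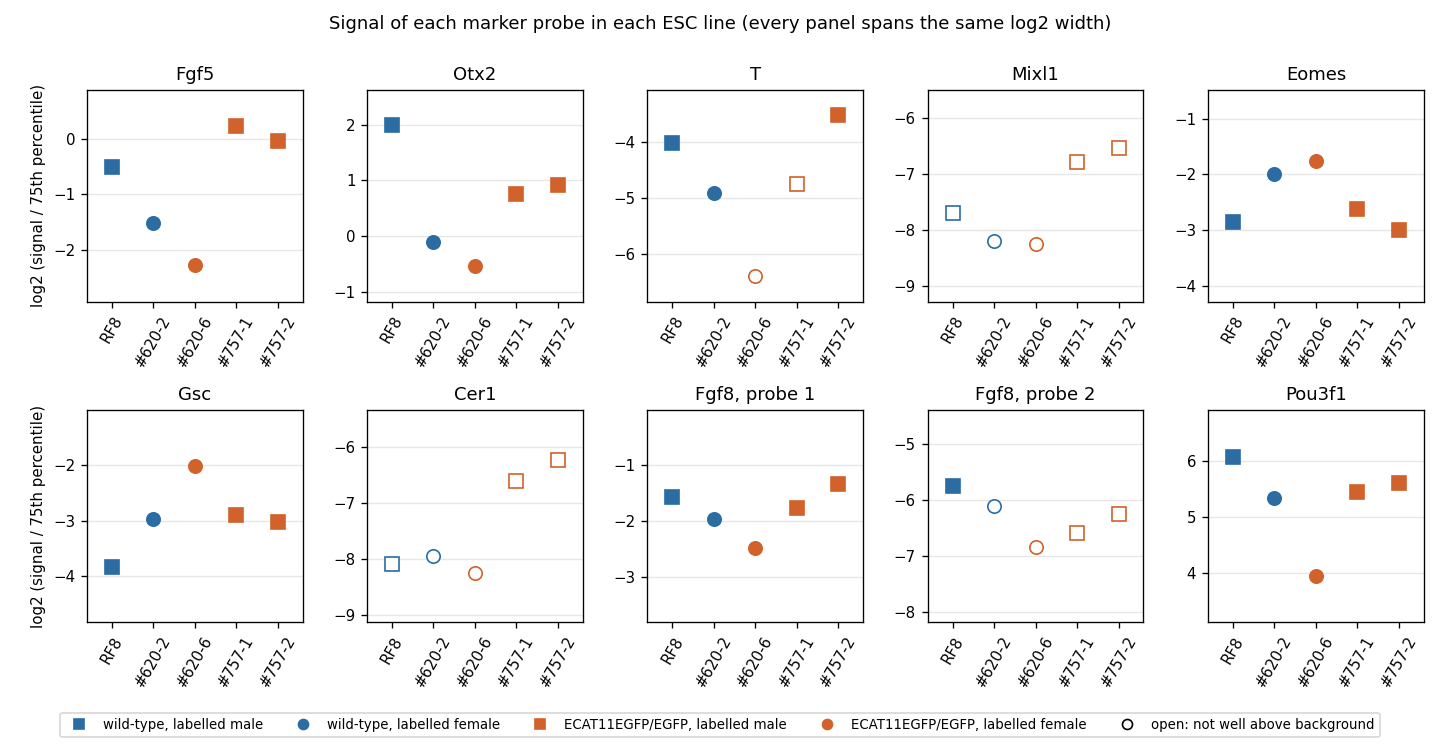
Log2 signal of the 10 probes (vertical axis, relative to the array's 75th percentile) in each of the 5 ESC lines (horizontal axis), with 1 point per array, colour for genotype, shape for the sex label and open points where the probe was not well above background. Otx2, Pou3f1, Fgf5, T and the first Fgf8 probe are lowest in #620-6, while Eomes and Gsc are highest there.

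Otx2 is a homeodomain factor that acts early in the passage from the naive to the primed state. RF8 gave an Otx2 signal of 1.99, #620-2 of -0.11, #620-6 of -0.53, #757-1 of 0.76 and #757-2 of 0.91. RF8 stood highest and both #620 lines lowest. The probe is spotted 10 times on the array, with an SD over spots between 0.0484 and 0.103, and the spots of neighbouring lines in this order overlapped only between #757-1 and #757-2. The range over the lines was 2.52, or 5.74-fold, wider than in 97.7% of the 20617 probes that exceeded background clearly in every line, whose median range was 0.597. Without RF8 it was 1.44.

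Pou3f1, a POU-domain factor that in the embryo is found in the primed epiblast and later in the nervous system, had signals of 6.07 in RF8, 5.33 in #620-2, 3.94 in #620-6, 5.45 in #757-1 and 5.61 in #757-2. One line, #620-6, stood apart below the others. Its signal was 2.61-fold lower than in #620-2, its wild-type counterpart by line number. The full range was 2.13 (percentile 95.9), and without #620-6 it was 0.744. RF8 exceeded #757-2 by more than 2 times the combined error that the extraction software gives, whereas the steps among #620-2, #757-1 and #757-2 were smaller than that.

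Fgf5, the FGF ligand most often used as a marker of primed epiblast, had signals of -0.51 in RF8, -1.51 in #620-2, -2.27 in #620-6, 0.22 in #757-1 and -0.05 in #757-2. Both #620 lines were below the other 3, and #757-1 and #757-2 were within 2 combined errors of each other. The range of 2.48 (5.60-fold) was at percentile 97.5. Fgf8, a ligand of the streak and nascent mesoderm, had signals of -1.57 in RF8, -1.97 in #620-2, -2.49 in #620-6, -1.76 in #757-1 and -1.34 in #757-2 with its first probe, which has 10 spots. Both #620 lines were again lowest, and the range was smaller, 1.15 (percentile 82.2), and 0.627 without #620-6. Only the step from #620-6 to #620-2 was larger than 2 combined errors, although the spots of neighbouring lines did not overlap at any step.

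**Figure D2:**
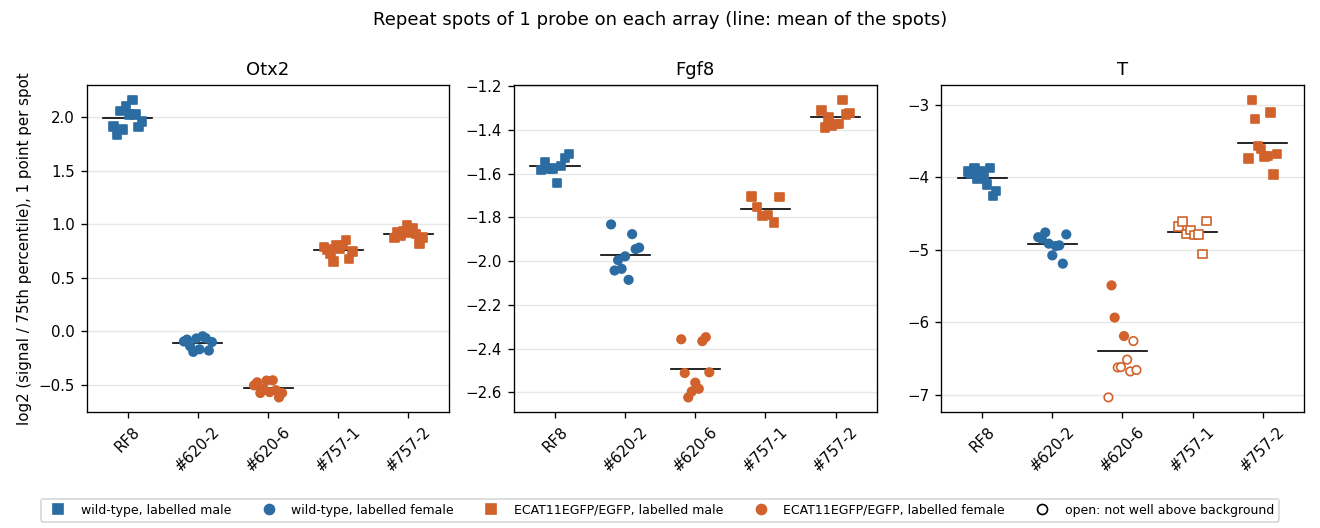
Repeat spots of the Otx2, Fgf8 and T probes (vertical axis, log2 signal relative to the array's 75th percentile) in the 5 lines, 1 point per spot used and a line at their mean, with open points for spots not well above background. The spots of Otx2 lie close together within a line, with the 2 #620 lines below the others, and those of T are wider, with 3 of 10 spots well above background in #620-6 and 0 of 8 in #757-1.

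T, the T-box factor of the streak and early mesoderm, had signals of -4.01 in RF8, -4.92 in #620-2, -6.40 in #620-6, -4.76 in #757-1 and -3.52 in #757-2. Since #620-6 and #757-1 were not well above background, the range of 2.87 is no measured fold. With a background correction that damps dim signals (normexp) it was 0.964. Eomes, the T-box factor of the streak and definitive endoderm, ran the other way. Its signals were -2.85 in RF8, -1.99 in #620-2, -1.76 in #620-6, -2.63 in #757-1 and -3.00 in #757-2, with both #620 lines above the other 3 and a range of 1.25 (percentile 84.7). The step between the #757-1 and #620-2 lines was the only one larger than 2 combined errors. Gsc, a homeodomain factor of the organizer, had signals of -3.83 in RF8, -2.97 in #620-2, -2.02 in #620-6, -2.89 in #757-1 and -3.03 in #757-2. RF8 was lowest, #620-6 was highest and the other 3 lines did not differ by 2 combined errors (range 1.81, percentile 93.4). Without RF8 the range was 1.01, and without #620-6 it was 0.933.

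Different shapes of profile were thus present among the 6 markers measured in every line. As a measure of likeness, each profile was centred on its mean over the 5 lines and the root mean square of the differences was taken. It was 0.401 between Fgf8 and Pou3f1, 0.442 between Otx2 and Pou3f1, 0.591 between Fgf5 and Pou3f1, and 0.397 between Eomes and Gsc. Between Fgf5 and Eomes it was 1.39, and between Otx2 and Gsc 1.42. Among all 20617 probes, the gene nearest to Otx2 was Fras1 (0.0650), and that nearest to Fgf5 was Frem2 (0.110), which encode related extracellular matrix proteins. Kif1a (0.0424) and Pou3f3 (0.0952), a close relative of Pou3f1, came first and second for Pou3f1. Sh3tc1 was nearest to Gsc (0.0406) and Pdzrn3 to Fgf8 (0.0495). With 5 lines, such likeness is only a description.

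**Figure D3:**
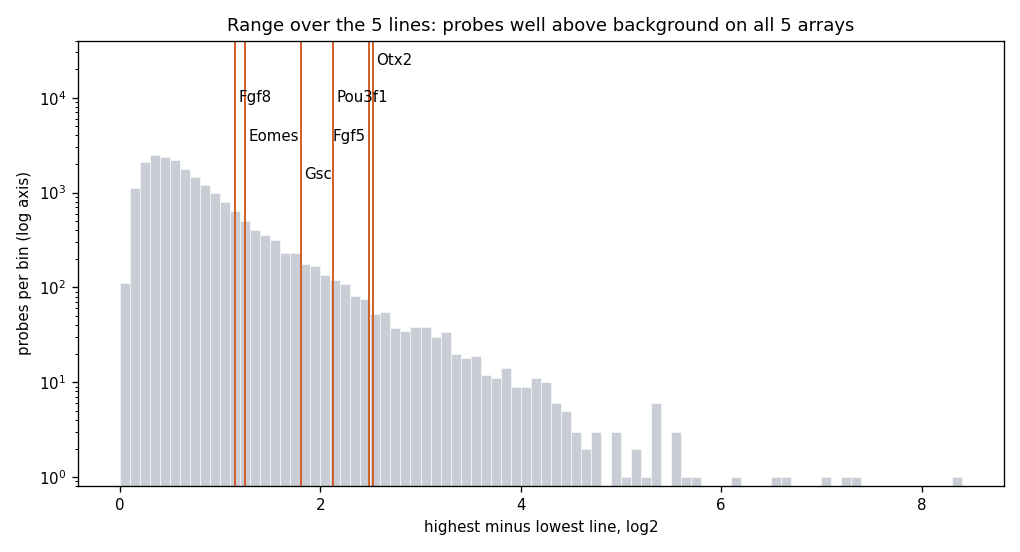
Number of probes (vertical axis, log scale) by range over the 5 lines (horizontal axis, log2 of highest over lowest line, bins of 0.1), for the 20617 probes that were well above background in every line, with lines at the 6 markers measured in every line. Otx2, Fgf5 and Pou3f1 lie beyond the 95th percentile of 1.99, Gsc lies between it and the 90th of 1.52, and Eomes and Fgf8 lie below both.

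Between genotypes no marker probe passed the test. The 3 ECAT11EGFP/EGFP lines were compared with the 2 wild-type lines by limma, with Benjamini-Hochberg adjustment over all 28972 probes kept. The threshold was an adjusted p below 0.05 together with a difference over 2-fold. Of all probes 0.00345% were called and of the 8 marker probes none. At an unadjusted p under 0.05 and over 2-fold, 3.33% of all probes and none of the marker probes passed. The median log2 difference (ECAT11EGFP/EGFP minus wild-type) was -0.26 over the marker probes and -0.02 over all probes kept.

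Pou3f1 had a log2 difference of -0.70 (SE 0.609, adjusted p = 0.890), within the spread of the knock-in lines (SD 0.919, n = 3). Gsc had the largest positive value, 0.75 (SE 0.439, adjusted p = 0.806), where knock-in lines averaged -2.65 ± 0.549 (SD, n = 3) and wild-type lines -3.40 ± 0.608 (SD, n = 2). For Otx2 the difference was -0.56, for Eomes -0.04, for the first Fgf8 probe -0.10 and for Fgf5 0.31, with adjusted p from 0.948 to 0.996. These values say little about the absence of an effect, because the lines of 1 genotype differed widely. The 95% interval of the Fgf5 difference ran from -2.01 to 2.63, and that of Otx2 from -2.66 to 1.55. Only the second Fgf8 probe had genotype groups that did not overlap, with the ECAT11EGFP/EGFP lines lower, a pattern seen in 12.4% of all probes (11.2% for higher), and it was well above background in RF8 alone.

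Within slide 1, which holds both genotypes, #620-6 differed from the mean of RF8 and #620-2 by -1.26 for Fgf5, -1.47 for Otx2, -1.76 for Pou3f1, -0.73 for the first Fgf8 probe, 0.66 for Eomes and 1.38 for Gsc. The mean of #757-1 and #757-2 minus RF8 was 0.59 for Fgf5, -1.15 for Otx2, -0.55 for Pou3f1, 0.01 for Fgf8, 0.04 for Eomes and 0.86 for Gsc. The #757 lines also differ from RF8 in slide and strain label, so genotype, slide and strain cannot be told apart there. RF8 is a control in both, so the values are not independent. A test of whether the genotype difference itself depended on the sex label gave adjusted p from 0.418 to 0.957 over the 8 probes. In that test 3 of the 4 combinations of genotype and sex label hold 1 line each, so the spread comes from #757-1 and #757-2 alone before limma's moderation.

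**Figure D4:**
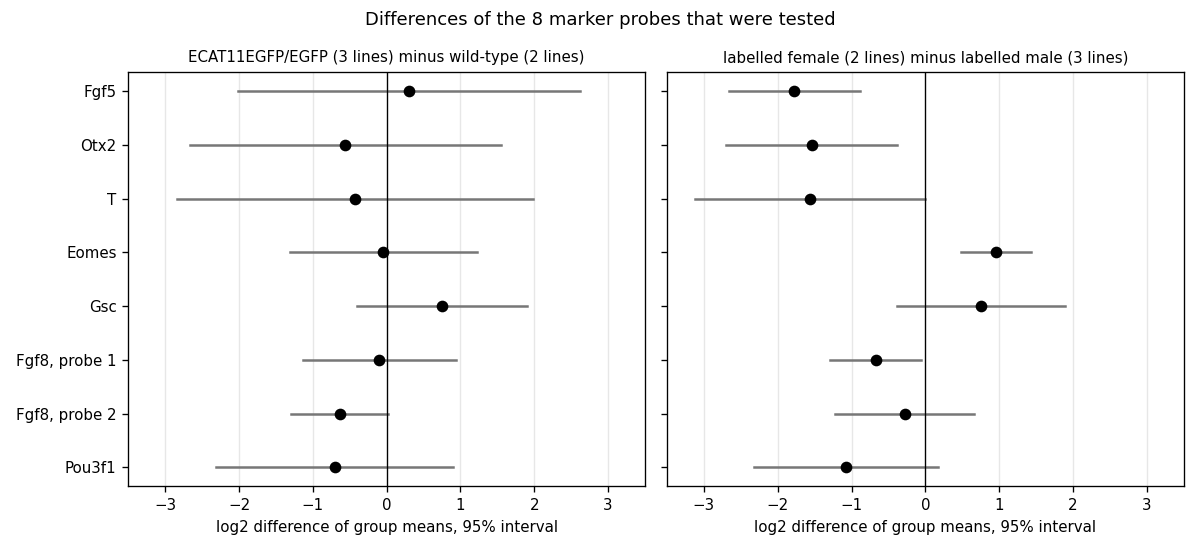
Log2 difference of group means (horizontal axis) with its 95% interval from limma for the 8 marker probes tested, for ECAT11EGFP/EGFP minus wild-type lines (left) and labelled female minus labelled male lines (right). The left intervals all include 0, and on the right those of Otx2, Fgf5, T, the first Fgf8 probe and Eomes do not.

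Most of the markers measured had lower signals in the #620 lines than in the rest. Both #620 lines are labelled female and the other 3 male, so the sex label and the line number cannot be told apart. Otx2, Pou3f1, Fgf5, T and the first Fgf8 probe were lower in both #620 lines than in every other line, 5 of 8 marker probes against 20.1% of all probes, and Eomes was higher in both, 1 of 8 against 18.8%. Of these, T rests on a rank against arrays where it was not well above background. Among the 6 marker probes measured in every line 4 were lower, against 23.3% of such probes, and 1 was higher, against 17.6%. Leaving a line out can only keep or raise such a count, so the following counts are no check of it. The count was 5 without RF8 (27.6% of all probes), #620-6 (32.3%), #757-1 (23.9%) or #757-2 (25.4%), and 6 without #620-2 (34.2%). The median log2 difference (labelled female minus labelled male) was -0.87 over the marker probes and -0.01 over all probes kept.

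No marker passed the adjusted threshold in this comparison, which called 0.356% of all probes. At an unadjusted p under 0.05 and over 2-fold, 3 of 8 marker probes (Fgf5, Otx2 and T, all lower in the #620 lines) passed against 7.33% of all probes, T with values not well above background. Fgf5 had a log2 difference of -1.77 (SE 0.338, adjusted p = 0.115), which is 3.42-fold, from a mean of -0.11 ± 0.368 (SD, n = 3) in the male-labelled lines to -1.89 ± 0.536 (SD, n = 2) in the female-labelled ones. Otx2 had -1.54 (SE 0.438, adjusted p = 0.194), a 2.91-fold difference. Eomes had 0.96 (SE 0.178, adjusted p = 0.113), a 1.94-fold higher mean in the #620 lines.

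For the first Fgf8 probe the log2 difference was -0.67 (adjusted p = 0.247), for Pou3f1 -1.07 (adjusted p = 0.331) and for Gsc 0.76 (adjusted p = 0.428). Pou3f1, Gsc and Fgf8 leaned on #620-6. Without this line the log2 difference was -0.38 for Pou3f1, 0.28 for Gsc and -0.41 for Fgf8. Without #620-2 that of Pou3f1 was -1.77 and that of Gsc 1.23, and without RF8 that of Gsc was 0.47. For T the fitted value of -1.56 (adjusted p = 0.276) includes 2 arrays that were not well above background and is no measured fold, and with normexp it was -0.56. Within slide 1, the mean of the #620 lines minus RF8 was -1.38 for Fgf5, -2.31 for Otx2, -1.44 for Pou3f1, -0.67 for Fgf8, 0.98 for Eomes and 1.33 for Gsc. Those arrays are part of the whole comparison. For all but Gsc the groups did not overlap there, which fixed the direction within slide 1.

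Of the #620 lines, the knock-in line was the more extreme. #620-6 was the lowest line for 6 of 8 marker probes, both Fgf8 probes included, where it was lowest for 25.1% of all probes, and the highest for Eomes and Gsc, where it was highest for 22.1% of all probes. For T and the second Fgf8 probe its value was not well above background, and among the 6 probes measured in every line it was lowest for 4 (26.8% of such probes) and highest for 2 (20.3%). From #620-2 to #620-6 the log2 signal differed by -1.39 for Pou3f1, -0.76 for Fgf5, -0.52 for Fgf8, -0.42 for Otx2, 0.23 for Eomes and 0.95 for Gsc. Pou3f1 was 1 of the 3.07% of probes, of those well above background in both lines, that were over 2-fold lower in #620-6. Each line is 1 array here, so this pair has no replicate check.

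Other genes of the epiblast were read from a list of 15 genes with 20 kept probes. In the genotype comparison 19 of the 20 were lower in ECAT11EGFP/EGFP lines, with a median log2 difference of -0.44, and none was called. They include repeat probes of Dnmt3a, Lef1, Pim2 and Tead2, and #620-6 was the lowest line for 11 of the 20. Of all 28972 probes kept, 13588 were higher and 15384 lower by genotype. By sex label 14045 were higher and 14926 lower. The counts by direction in this and the following lists stand beside these. Tcf15, a basic helix-loop-helix factor of early epiblast priming, had the smallest p, with signals of 4.37 in RF8, 5.38 in #620-2, 4.19 in #620-6, 3.36 in #757-1 and 3.36 in #757-2 (difference -1.23, adjusted p = 0.625). Tdgf1 (Cripto), the Nodal co-receptor, followed with -0.78 (adjusted p = 0.656), and the FGF-responsive factor Etv4 with -0.75 (adjusted p = 0.718). In all 3 the highest line was #620-2 and the lowest were the #757 lines, an order that none of the 6 markers measured in every line had.

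In the comparison by sex label the epiblast list was divided, with 8 probes higher and 12 lower in the #620 lines, a median of -0.35 and no call. Some of its genes were lower in both #620 lines, as Fgf5 and Otx2 were. Dnmt3b, a de novo DNA methyltransferase of the primed epiblast that was picked after its values were seen, had signals of 5.51 in RF8, 4.17 in #620-2, 3.89 in #620-6, 5.43 in #757-1 and 5.24 in #757-2 (labelled female minus male -1.36, adjusted p = 0.0715). Sall2, a zinc finger factor, had 0.81, -0.39, -1.78, 0.70 and 0.12 in the same order of lines (-1.63, adjusted p = 0.208). Wnt8a, a Wnt ligand of the early streak, had -2.84, -1.64, -2.19, -4.49 and -3.40, higher in both #620 lines as Eomes was (1.67, adjusted p = 0.230). It was well above background on 4 arrays. The widest range in the list was that of Sox3, which was well above background in RF8 only.

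The streak and mesendoderm list held 19 genes with 26 kept probes, of which 9 were well above background on every array. In the genotype comparison 5 were higher and 21 lower, with a median of -0.31 and no call. Mesp1, a factor of nascent cardiac mesoderm, had -1.26 (adjusted p = 0.385) with a dim probe that was well above background on the slide 1 arrays only, and -0.18 (adjusted p = 0.965) with a brighter one measured on all 5 arrays. Tbx6 had -0.92 (adjusted p = 0.618) and Mesp2, well above background on 4 arrays, -1.05 (adjusted p = 0.658). By sex label 16 probes were higher and 10 lower in the #620 lines, with a median of 0.36, and 2 were called, both higher. Pdgfra, a receptor of mesoderm and primitive endoderm, had a signal of -1.99 in #620-2 and -1.95 in #620-6. It was not well above background in the other 3 lines, so that it was at least 7.67-fold higher in the #620 lines. Its adjusted p of 0.00997 came from limma with those dim values taken as measured and is no test of this bound. A second Pdgfra probe was well above background in #620-2 only. Sox17, an endoderm factor, had -4.99 in RF8, -2.65 in #620-2, -3.00 in #620-6, -4.95 in #757-1 and -4.93 in #757-2 (difference 2.13, adjusted p = 0.0356), where the #757 values were not well above background. Over all probes 88 were called without RF8, and none without any one of the other lines, Pdgfra and Sox17 included. Wnt3, the ligand that starts the streak, was lower in both #620 lines as Fgf5 was, with -0.99, -2.53, -3.12, -1.40 and -1.59 in RF8, #620-2, #620-6, #757-1 and #757-2, a gene chosen after its values were seen.

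Genes of the Nodal, FGF and Wnt pathways that act on the markers gave 29 kept probes from 18 of 19 genes (Fgf4 had no probe). Of these, 13 were higher and 16 lower in ECAT11EGFP/EGFP lines (median -0.04), and by sex label 11 were higher and 18 lower in the #620 lines (median -0.10), with no call in either. Sp5, a direct target of Wnt, had the widest range. Its signals were 0.34 in RF8, -0.68 in #620-2, -2.51 in #620-6, -0.75 in #757-1 and -0.69 in #757-2, lowest in #620-6 as 6 of the marker probes were. Lefty1, a Nodal antagonist and target, differed little, with 4.69, 4.43, 4.02, 4.28 and 4.25 in the same order (genotype difference -0.38, adjusted p = 0.743). Spry4, an inhibitor of FGF signalling, had a genotype difference of -1.04 (adjusted p = 0.592) with a dim probe that was well above background on 3 arrays. A brighter Spry4 probe measured on all 5 arrays had -0.82 (adjusted p = 0.616). The receptor Acvr2a had a difference of 0.31 (adjusted p = 0.748).

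Naive genes had 22 kept probes from 14 of 15 genes (Prdm14 had no probe). By sex label 15 were higher and 7 lower in the #620 lines, and the median was 0.60. Groups did not overlap for 11 with the #620 lines higher, against the 18.8% of all probes given above, and for 2 with them lower, against 20.1%. None was called. The 11 were probes of Nr0b1, Klf4 and Nanog and repeat probes of Esrrb, Klf5, Tbx3 and Tfcp2l1, so they were fewer genes than probes. The 2 were of Nr5a2 and a dimmer Klf2 probe, and the groups overlapped for the brighter Klf2 probe. Klf4, Nanog and Nr5a2 were chosen after their values were seen. Klf4 and Nanog were among the 11, with log2 differences of 1.86 (adjusted p = 0.120) and 1.02 (adjusted p = 0.307). Nr5a2, with the smallest p of the list, was among the 2, with -0.86 (adjusted p = 0.0884). Tfcp2l1 had signals of -3.35 in RF8, -0.29 in #620-2, -0.12 in #620-6, -1.14 in #757-1 and -1.64 in #757-2 with 1 of its probes. Its brightest probe had 0.99, 2.76, 2.99, 2.60 and 2.91, again lowest in RF8, where Otx2 was highest, but with the #620 and #757 lines overlapping. Tbx3 had 1.18, 4.44, 4.42, 2.26 and 2.93 in the same order of lines with its brighter probe (labelled female minus male 2.31, adjusted p = 0.153), and its dim probe was well above background in the #620 lines only. Zfp42 (Rex1) had another pattern, with 6.25 in RF8, 5.97 in #620-2, 1.32 in #620-6, 5.79 in #757-1 and 1.34 in #757-2, and with a second probe 6.55 in #757-1 against 3.87 in #757-2, so that 1 #620 line and 1 #757 line, both ECAT11EGFP/EGFP, were low in this naive marker.

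By genotype 16 naive probes were higher and 6 lower in ECAT11EGFP/EGFP lines, with a median of 0.30 and no call. Fbxo15 had a difference of 1.23 (adjusted p = 0.475), Dppa3 one of 1.68 (adjusted p = 0.609) and Gbx2 one of -1.10 (adjusted p = 0.698). Both Zfp42 probes were lower in all ECAT11EGFP/EGFP lines than in either wild-type line, a pattern of 12.4% of all probes, with differences of -3.29 (adjusted p = 0.745) and -2.09 (adjusted p = 0.720), the lowest of the list. In #757-1 the signals were close to those of #620-2 (5.79 against 5.97, and 6.55 against 6.79). The differences thus came mostly from #620-6 and #757-2.

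**Figure D5:**
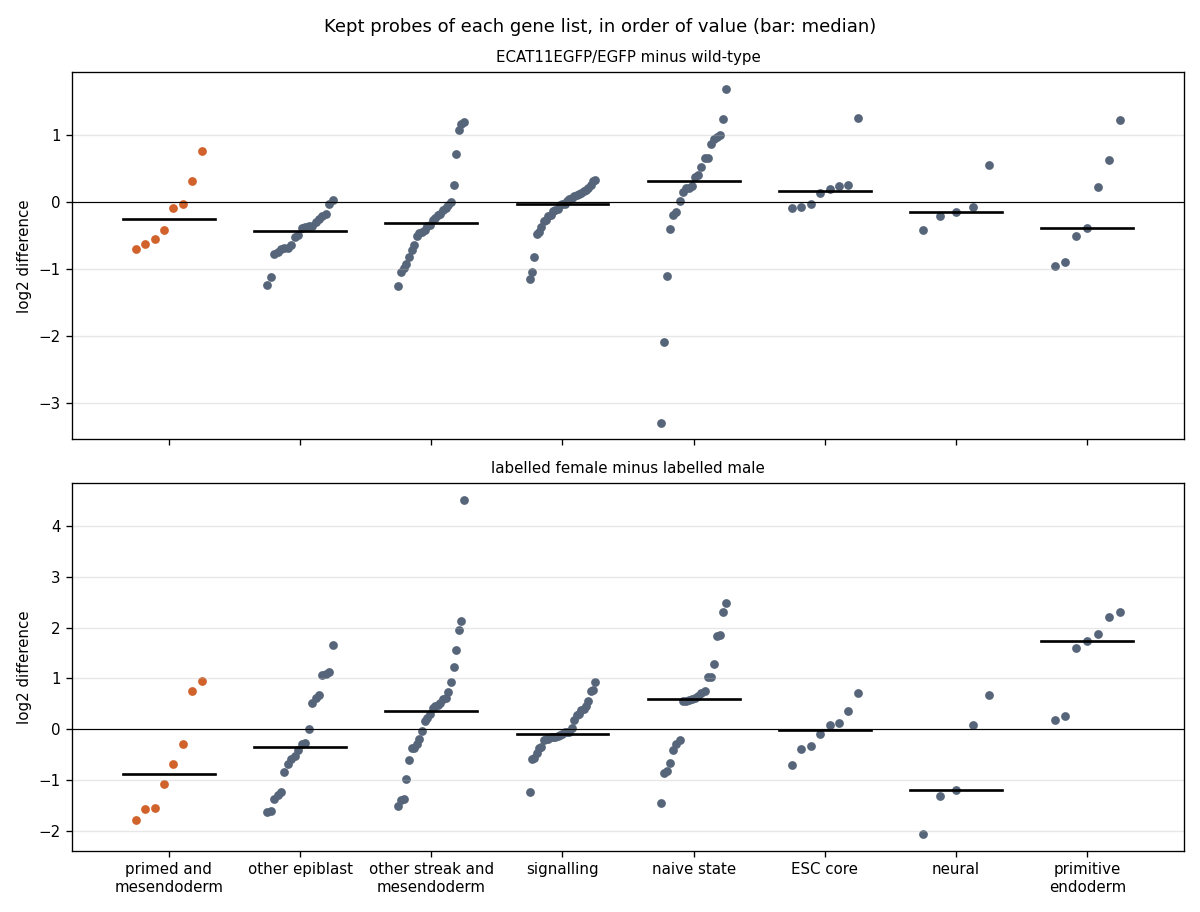
Log2 difference of each kept probe (vertical axis) in 8 gene lists (horizontal axis), sorted by value within a list and with a bar at the list's median, for ECAT11EGFP/EGFP minus wild-type lines (top) and labelled female minus labelled male lines (bottom). At the bottom the marker list has a median of -0.87, the naive list one of 0.60 and the primitive endoderm list one of 1.74. The last is the value of a dim Sox7 probe that was not well above background in the lines labelled male.

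Genes that mark other cell types were read in the same contrast. All 7 kept probes of primitive endoderm genes (Gata6, Sox7, Afp, Cubn, Dab2 and Gata4, with Ttr not kept) had higher means in the #620 lines, with a median of 1.74 and no call. Only 3 of them were well above background on all 5 arrays. The median is the value of a dim Sox7 probe, well above background in the #620 lines only and at least 1.07-fold higher there. The log2 of the summed signal of the list, in which bright probes weigh most, was 0.27 to 0.53 in the #620 lines. In the others it was -0.92 to -0.86. Gata6 had signals of -3.07 in RF8, -1.35 in #620-2, -2.30 in #620-6, -3.51 in #757-1 and -3.69 in #757-2. Of 5 kept neural probes 3 were lower in the #620 lines, Nes and both of Pax6. The log2 of the summed signal was -0.03 to 0.39 there against 1.51 to 2.50. Nes, an intermediate filament gene of neural progenitors, had a difference of -2.06 (adjusted p = 0.113). Fibroblast genes, which would mark feeder cells, had 10 kept probes with a median difference of 1.06, 6 higher and 4 lower in the #620 lines. Groups did not overlap for 5 with the #620 lines higher (Dcn, Col3a1, Lum and both of Thy1), against 18.8% of all probes. They did not overlap for 2 with the #620 lines lower (Postn and a Col1a1 probe), against 20.1%. Lum was well above background in the #620 lines only, and that Col1a1 probe in RF8 only. Dcn had a difference of 2.45 (adjusted p = 0.0741) and Col3a1 one of 2.60 (adjusted p = 0.108). The log2 of the summed signal of the list was 3.21 to 3.27 in the #620 lines and 1.31 to 3.99 in the others, so the groups overlapped. Trophoblast genes had -1.34 to 1.26 against -0.98 to 0.00. The part of these other cell types in the differences of the markers was not tested.

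Promoters are shown for Fgf5 and Otx2, which were low in the #620 lines, and for Eomes, which was high there, as the 250 bases before the transcription start in RefSeq (build GRCm38.p6). An entry there was matched by 6 of the 9 markers, all but Mixl1, Fgf8 and Pou3f1. Capitals mark matches on either strand to the octamer ATGCAAAT, to TAATCC (bound by paired-like homeodomain factors such as Otx2 and Gsc), to CTTTGAT (TCF/LEF), to TCACACC (T-box factors) and to the GC box GGGCGG. Of all 32851 promoter stretches of this length, 1.6% hold the octamer, 6.25% TAATCC, 3.21% CTTTGAT, 3.33% TCACACC and 32.7% the GC box. The Fgf5 stretch (chr5:98253934-98254183, plus strand, GC content 70.8%) had 1 TCACACC and 1 GC box beside it. Neither the first of 4 Otx2 starts (chr14:48667645-48667894, minus strand, 42.0%) nor Eomes (chr9:118477939-118478188, plus strand, 46.4%) had a match. Of the Otx2 starts not shown, start 3 (chr14:48665110-48665359) had 1 TAATCC match, and starts 2 and 4 had none. The median GC content of all stretches was 52.4%.
Fgf5: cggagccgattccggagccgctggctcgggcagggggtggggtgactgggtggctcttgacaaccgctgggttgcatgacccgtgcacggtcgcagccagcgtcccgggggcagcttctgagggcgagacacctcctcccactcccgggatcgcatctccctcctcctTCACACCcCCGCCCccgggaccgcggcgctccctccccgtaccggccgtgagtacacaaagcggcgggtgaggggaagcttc
Otx2: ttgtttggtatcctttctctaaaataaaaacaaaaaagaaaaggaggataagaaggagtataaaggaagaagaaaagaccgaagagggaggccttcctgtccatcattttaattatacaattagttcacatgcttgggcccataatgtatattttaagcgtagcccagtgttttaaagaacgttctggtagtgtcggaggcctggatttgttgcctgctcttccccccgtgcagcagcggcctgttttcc
Eomes: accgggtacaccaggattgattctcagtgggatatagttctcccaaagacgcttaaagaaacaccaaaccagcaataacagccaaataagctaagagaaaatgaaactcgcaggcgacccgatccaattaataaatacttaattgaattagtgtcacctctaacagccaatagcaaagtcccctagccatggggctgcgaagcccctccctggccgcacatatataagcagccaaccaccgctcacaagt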

How the data were processed

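Total RNA of the 5 lines was labelled with Cy3 and hybridized by the authors, who deposited for every spot a background-corrected intensity from Feature Extraction 9.5.3.1, not normalized between arrays. The authors also deposited a log2 table of the same arrays, centred probe by probe, whose differences between arrays had a slope of 1.00 against the scanner values over 20617 probes. Spots marked as non-uniform or population outliers (0.335%) and 1639 control spots of 45018 were left out, each intensity was divided by its array's 75th percentile, log2 was taken and spots of a probe were averaged (41174 probes). The 28972 probes Present in 1 line or more entered the tests, which used limma 3.58.1 (R 4.3.3) and were tried on simulated data first. With 2 arrays against 3, an exact permutation test cannot give a p under 0.1, so limma's adjusted p is given. A fold against a group in which no array was well above background is a lower bound. All probes of the markers are named. Of the other lists, the genes called, the 3 with the smallest genotype p and the 3 with the widest range are named, and others only where so stated. Some of the nearest profiles are not reported here. Markers, lists and rules were chosen with earlier results of these data known. As alternatives, normexp (offset 50) replaced the background correction, arrays were quantile normalized, the authors' log2 values were used, the filter on dim probes was dropped or tightened, marked spots were kept, slide or the other label entered the model, the methods' t-test was run and each line was left out. The counts of non-overlapping groups with a line left out, the values within slide 1 and the test of genotype by sex label were added after the data were seen. The number of arrays limits the precision, and p-values cover the spread between lines only. Figures were drawn with matplotlib 3.10.9.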

Additional observations from a re-analysis of the deposited data

How the results depend on the processing

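No marker probe was called in either comparison under any alternative (0 calls also with each line left out in turn). At an unadjusted p under 0.05 and over 2-fold, the methods' t-test passed 0 marker probes by genotype and 1 by sex label. Slide 2 holds only ECAT11EGFP/EGFP lines labelled male, so with the slide as a block the differences repeat those within slide 1. By genotype, that is #620-6 alone against RF8 and #620-2. The median genotype difference of the marker probes, -0.26, was 0.0302 with normexp and -1.09 with the slide as a block, and lay between -0.577 and 0.0661 with 1 line left out. The genotype value changed sign for Fgf5 with the slide as a block (-1.26), for T with normexp (0.0356) and for Eomes with normexp (0.0248), with the slide as a block (0.66) and with sex label in the model (0.12). With 1 line left out it ran from -0.19 to 1.09 for Fgf5, -1.61 to 0.49 for Otx2, -1.11 to 0.33 for T, -0.47 to 0.39 for Eomes and -0.36 to 0.22 for Fgf8. Gsc and Pou3f1 kept their sign under all 14 alternatives. By sex label no marker changed sign under 14 alternatives (13 for T). Where the groups did not overlap, leaving a line out could not change the sign. The median by sex label, -0.87, was -0.54 with normexp and lay between -1.34 (without #620-2) and -0.40 (without #620-6) with 1 line left out. The causes were not tested. Adjusted p by sex label ran from 0.0704 to 0.301 for Fgf5 and from 0.0726 to 0.311 for Eomes over the alternatives. Counts over all probes by sex label moved from 103 to 287 with normexp, 210 with quantile normalization, 27 without a filter, 0 with genotype as a covariate and 2 with the methods' t-test. No paired analysis was possible because the labels give a shared line number to only 1 pair of the 2 genotypes, #620-2 and #620-6. On slide 2 the dimmest signal well above background was higher, and the value of the second Fgf8 probe in RF8, the only line where it was well above background, would lie under it.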
